A study of Mus musculus with 6 samples.

Results

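The genes described here are 32 mouse genes of meiotic recombination and chromosome synapsis, chosen by name, and the RNA-seq table held 31 of them among its 24421 genes. Rnf212 had no row and has no value here. The mean over the 4 libraries was at least 1 CPM (reads per 1000000 reads counted in genes) for 24 genes, which entered the test, and below it for 7. The gene list was drawn up with earlier results of these data known, and the limit used the mean level over both genotypes, so the levels themselves are a description. Just inside the limit were Spata22 at a mean of 1.22 CPM and Prdm9 at 1.23 CPM, and just outside it were Sycp2 at 0.812 CPM and Syce3 at 0.621 CPM. Msh5 reached the limit through the knockout libraries, with a wild-type mean of 0.99 CPM.

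RNA was sequenced from E14 mouse embryonic stem cells, a cultured line from the early embryo. The groups were Pml-/- cells and wild-type cells, with 2 libraries each, and both were treated with 10 µM paraquat for 15 h, a redox cycler that makes superoxide in cells. All cells also grew in leukemia inhibitory factor with the inhibitors CHIR99021 and PD0325901, so that the comparison is of genotypes under treatment, with no untreated group. The sources used here give no number of knockout clones. Whether a group's 2 libraries are separate cultures is not labelled either, and p-values therefore speak for the scatter of these 4 libraries alone, possibly a technical one.

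In meiosis, chromosomes are cut by the SPO11 enzyme, the cuts are repaired on the homologous chromosome by the recombinase DMC1, and a protein zipper called the synaptonemal complex holds the homologues together while crossovers form. Special cohesin subunits build the chromosome axes on which this takes place. Most of these genes serve mainly germ cells. In most other cells many of them are kept silent by promoter DNA methylation and by repressor complexes such as the Polycomb complex PRC1.6, and cultured embryonic stem cells are known to transcribe some of them at low level without entering meiosis.

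Depth was 38150397 and 43715807 reads in the knockout libraries and 31384794 and 44130093 in the wild-type libraries. The Pml transcript stood at 78.7 and 89.7 CPM in the knockout, against 238 and 228 CPM in wild type (limma, adjusted p = 4.43e-10), so that reads from the locus were still counted in the knockout. All 10 embryonic stem cell markers examined were above 1 CPM, with sums of 7352 and 7377 CPM in the knockout and 7130 and 7229 CPM in wild type, 3 higher and 1 lower in the knockout. The 11 late spermatocyte markers summed to 6.22 to 7.16 CPM in the knockout and 6.16 to 7.17 CPM in wild type. Of these, Spag6, Ldhc and Piwil1 reached 1 CPM and did not pass, the other 8 were below it, and Tnp1 had no read in any library. The 14 germ cell markers summed to 464 to 465 CPM in the knockout and 399 to 453 CPM in wild type. Kit, which stem cells also express, gave 241 and 239 CPM of this in the knockout and 197 and 244 CPM in wild type. Of 11 germ cell markers tested, 1, Dazl, was lower in the knockout and 1 higher, where 3.45% of all tested genes were lower and 1.95% higher. Markers of the 2-cell-like state, a rare state of these cultures, moved with genotype. The 12 listed summed to 36.9 to 38.5 CPM in the knockout and 18.04 to 20.2 CPM in wild type, 6 of 7 tested being higher in the knockout, and their part in the results below was not tested. Neuroectoderm markers summed to 294 and 301 CPM in the knockout and 323 and 333 CPM in wild type; 2 of 6 tested, Sox1 and Nes, were lower in the knockout, and the part of these was not tested either. All 4 tested genes of the Y chromosome were lower in the knockout, with a median log2 difference of -4.15, a second way in which the knockout libraries stand apart; whether it bears on the meiotic genes, none of which is Y-linked, was not tested. The library kit entry of wild-type replicate 2 differs from that of the other RNA libraries.

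Of the 24 tested genes, 7 fell in the knockout and 0 rose (limma-trend on log2(CPM + 1), Benjamini-Hochberg adjusted p under 0.05 over 12710 genes). Over all tested genes 5.41% passed, 3.45% lower and 1.95% higher. edgeR's quasi-likelihood test on the recovered reads called 6 of the meiotic genes lower and 0 higher, without Tex11 (adjusted p = 0.0504), where it called 4.19% of all genes, 2.71% lower and 1.48% higher. By unadjusted p under 0.05, 10 of the 24 passed, against 19.3% of all tested genes. In these bulk samples, fewer cells with a transcript and less RNA per cell cannot be told apart. The median log2 difference was -0.11 over the 24 genes and -0.00 over all genes tested. The genes that fell came from separate steps of meiosis: the axis proteins Hormad1 and Hormad2, the cohesin subunits Smc1b and Stag3, the break factor Rec114, and Tex15 and Tex11. The other 17 did not pass, and they include most of the strand exchange and crossover genes. The knockout and wild-type libraries did not overlap for 11 genes that were lower in the knockout and 4 that were higher, against 25.5% and 23.8% of all tested genes. Summed over the 31 genes, the level was 331 and 324 CPM in the knockout and 404 and 382 CPM in wild type.

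**Figure D1:**
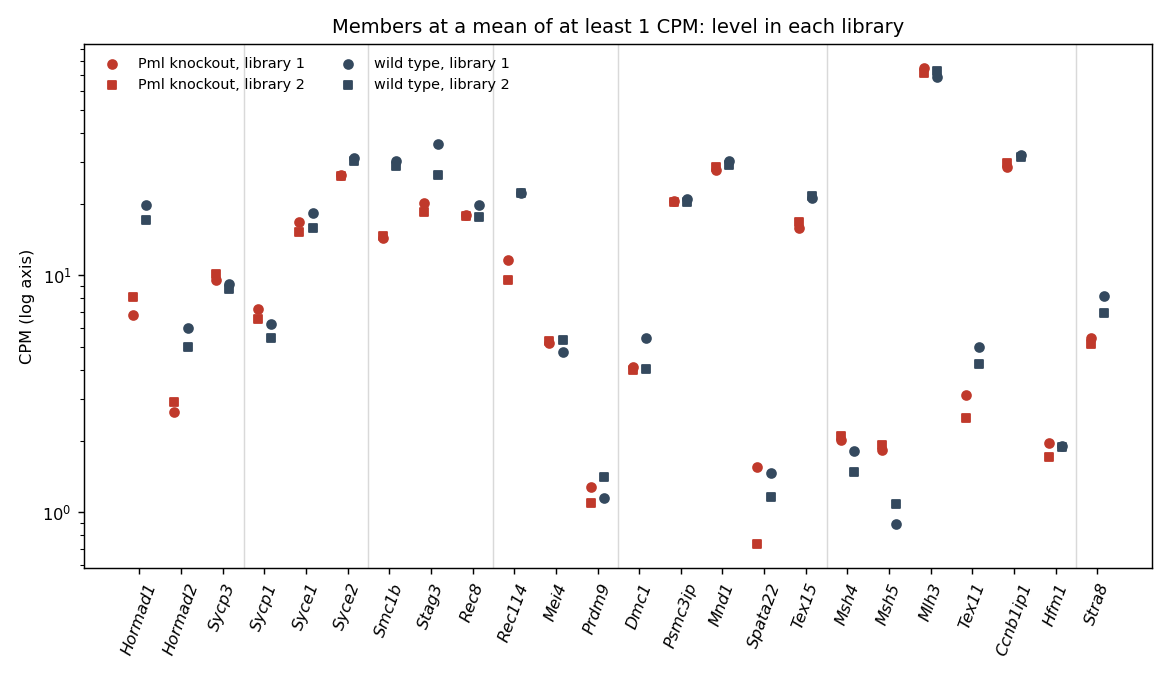
Level of each of the 24 tested genes in each library, in CPM on a log axis, grouped by role with grey lines between roles; circles are library 1 and squares library 2 of each genotype. Hormad1, Smc1b and Rec114 show the widest gaps, with both knockout libraries below both wild-type ones, as at 14.3 and 14.7 CPM for Smc1b in the knockout against 30.3 and 28.8 CPM in wild type.

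The axis of a meiotic chromosome carries the HORMA-domain proteins HORMAD1 and HORMAD2, which help to check that homologues have paired. Hormad1 had 6.82 and 8.12 CPM in the knockout, against 19.8 and 17.0 CPM in wild type. Both knockout libraries were below both wild-type libraries, and the knockout mean of 7.47 ± 0.92 CPM was 40.5% of the wild-type mean of 18.4 ± 1.96 CPM (SD, n = 2 each). On the log2 scale the knockout was at -1.20 relative to wild type (SE 0.12, limma adjusted p = 1.47e-05), the largest among the tested meiotic genes. Hormad2, its paralog, had 2.65 and 2.93 CPM in the knockout and 5.99 and 4.96 CPM in wild type, so that these groups did not overlap either. Its log2 difference came to -0.77 (SE 0.15, limma adjusted p = 0.00573). The 2 genes lie on different chromosomes, Hormad1 on chromosome 3 (95559677 to 95587863) and Hormad2 on chromosome 11 (4345801 to 4441198), in RefSeq's GRCm38.p6.

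The other axis genes were not called lower. Sycp3 encodes the fibre-forming protein of the lateral element and stood at 9.59 and 10.1 CPM in the knockout, against 9.21 and 8.72 CPM in wild type (log2 difference 0.12, SE 0.11, limma adjusted p = 0.603). The span of Sycp3 overlaps that of Chpt1 by 3724 bases, and Chpt1 averaged 21.7 CPM in both genotypes. Sycp2, which encodes the partner of SYCP3 in that element, was below the level limit. It had 51 and 43 reads in the knockout libraries and 12 and 24 reads in the wild-type libraries, a ratio of 2.41 after scaling to depth (exact 95% interval 1.62 to 3.64, counting error only). The libraries of the groups did not overlap, and the direction was opposite to that of the HORMAD genes. Its test depended on the genes admitted: edgeR's quasi-likelihood test on the recovered reads gave an adjusted p of 0.0295 over all 18761 genes with a read, where 2.32% of genes were higher in the knockout, and 0.0885 with the usual filter on low counts.

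In meiotic cohesin, genes of a single complex gave different results. Smc1b encodes the meiotic SMC subunit of the ring. It had 14.3 and 14.7 CPM in the knockout, against 30.3 and 28.8 CPM in wild type, with no overlap. The knockout mean was 49.1% of wild type, at a log2 difference of -0.98 (SE 0.086, limma adjusted p = 5.51e-06). Stag3, the meiotic STAG subunit, had 20.2 and 18.6 CPM in the knockout and 35.9 and 26.4 CPM in wild type. The knockout libraries were again the lower ones, although the wild-type libraries differed from each other by more than in the other genes that fell (log2 difference -0.64, SE 0.11, limma adjusted p = 0.00378). It was -0.43 without wild-type replicate 1 and -0.86 without wild-type replicate 2, and the call held in both. Rec8, the meiotic kleisin that closes the ring, had 18.01 and 17.7 CPM in the knockout and 19.7 and 17.7 CPM in wild type, and did not pass (log2 difference -0.06, SE 0.093, limma adjusted p = 0.776). The second meiotic kleisin gene, Rad21l, was nearly silent, with 0 and 7 reads in the knockout and 0 and 0 in wild type.

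The counterparts of these genes that dividing somatic cells use are listed here for comparison. Smc1a had a mean of 188 ± 2.48 CPM in the knockout and 186 ± 3.40 CPM in wild type (log2 difference 0.02, SE 0.046, limma adjusted p = 0.872). Stag1 and Stag2, the somatic STAG genes, gave log2 differences of 0.06 and -0.06 (adjusted p = 0.568 and 0.561). Rad21, the somatic kleisin, averaged 463 ± 12.5 CPM in the knockout and 465 ± 1.16 CPM in wild type (adjusted p = 0.961). None of these 4 passed, while Smc1b and Stag3 did; the difference between a meiotic gene and its counterpart was not itself tested. Of 19 tested genes of the somatic cohesin ring and its regulators, 2 fell and 0 rose, with a median of -0.03. Among all tested genes 3.45% were lower and 1.95% higher. The 2 that fell were Pttg1, the separase inhibitor securin, and Mau2, part of the cohesin loader. When each library was left out in turn, the call of Mau2 ended in 3 of the 4 fits (highest adjusted p = 0.392) and that of Pttg1 in 1 (adjusted p = 0.0729).

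**Figure D2:**
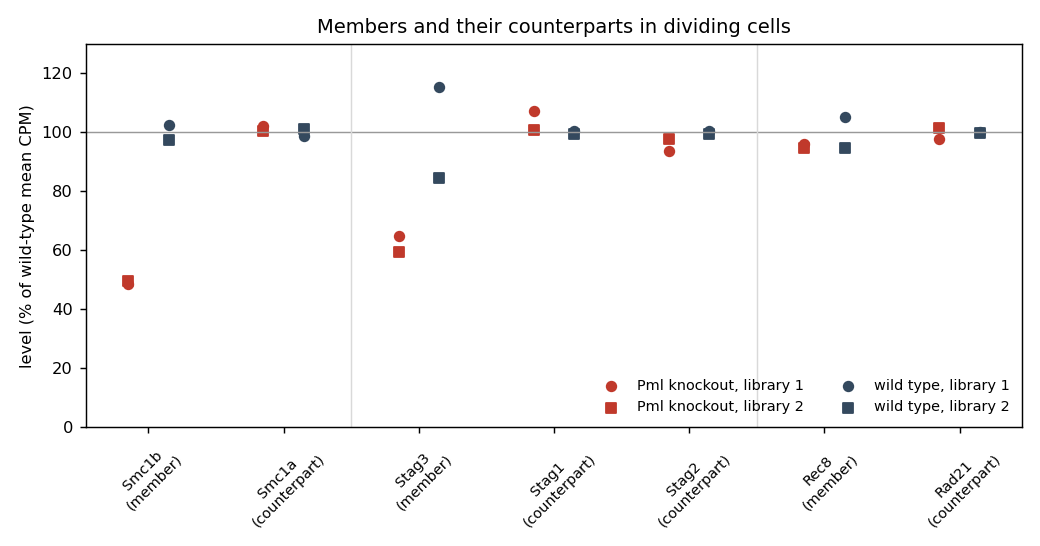
Level of 3 meiotic cohesin genes and of their counterparts in dividing cells, as a percent of the mean wild-type CPM of the same gene; each point is a library. The knockout points of Smc1b lie at 48.5 and 49.7% and those of Stag3 at 64.8 and 59.5%, while those of Smc1a lie at 102 and 100.4%.

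Double-strand breaks are made by SPO11 with accessory proteins, among them REC114 and MEI4, at sites that the histone methyltransferase PRDM9 marks in mice. Rec114 had 11.6 and 9.52 CPM in the knockout, against 22.2 and 22.3 CPM in wild type, so that the groups were far apart. The knockout mean was 47.4% of wild type, at a log2 difference of -1.02 (SE 0.11, limma adjusted p = 2.74e-05). Mei4, the binding partner of REC114, had 5.19 and 5.26 CPM in the knockout and 4.75 and 5.33 CPM in wild type, which overlap (adjusted p = 0.894). Prdm9 was low at 1.28 and 1.10 CPM in the knockout and 1.15 and 1.40 CPM in wild type, which also overlap (adjusted p = 0.908). Spo11 itself had 1 read in all 4 libraries together, and Mei1 had 16 and 12 reads in the knockout and 7 and 8 in wild type.

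Rec114 lies on the same chromosome as the disrupted gene. Pml spans chromosome 9 from 58217179 to 58249796 and Rec114 from 58652856 to 58822706 (GRCm38.p6), 403 kb apart. On chromosome 9, 20 of 726 tested genes were lower in the knockout and 13 higher, against 3.45% and 1.95% of all tested genes. Of the 26 other tested genes within 1000 kb of Pml, Rec114 was the only one that fell, and 4 rose. Those 4 were Cd276, an immune checkpoint gene (log2 difference 0.33, adjusted p = 0.00969), Arid3b (0.22, adjusted p = 0.0234), Rpp25 (0.19, adjusted p = 0.0269) and 6030419C18Rik (0.50, adjusted p = 0.0323). When each library was left out in turn, the calls of Cd276, Arid3b, Rpp25 and 6030419C18Rik ended in 1, 2, 2 and 3 of the 4 fits (highest adjusted p = 0.0728, 0.201, 0.242 and 0.216), and that of Rec114 in 0. The median over the 26 genes was 0.02. Nptn, whose RefSeq span overlaps that of Rec114 by 24 bases, had means of 88.5 CPM in the knockout and 88.7 CPM in wild type. This window was examined after the values were seen, and whether the position near Pml has a part in the Rec114 result was not tested.

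**Figure D3:**
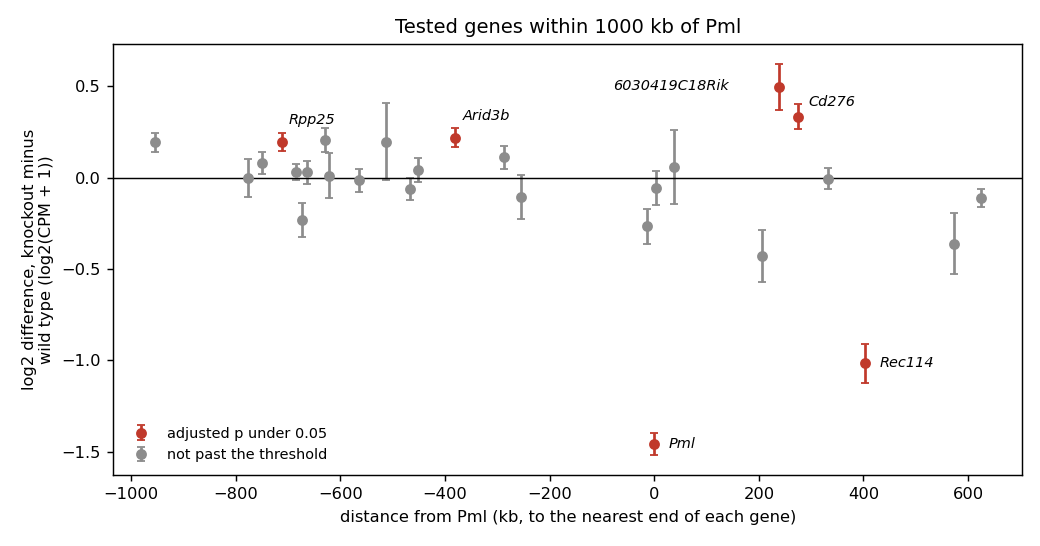
Log2 difference (knockout minus wild type, on log2(CPM + 1), with the limma standard error) of each tested gene within 1000 kb of Pml, against its distance from Pml in kb. Rec114 at 403 kb stands at -1.02, below the other neighbours, and Pml itself is at 0 kb and -1.46.

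The central region of the synaptonemal complex is built by the transverse filament protein SYCP1 and the central element proteins SYCE1, SYCE2, SYCE3 and TEX12, and none of its tested genes passed. Sycp1 had 7.23 and 6.57 CPM in the knockout and 6.25 and 5.44 CPM in wild type (log2 difference 0.21, SE 0.13, limma adjusted p = 0.414). Syce2 had 26.6 and 26.2 CPM in the knockout and 31.1 and 30.3 CPM in wild type, groups that do not overlap, at 86.1% of wild type (log2 difference -0.21, SE 0.075, limma adjusted p = 0.131). Syce1 overlapped between groups at 16.8 and 15.2 CPM in the knockout and 18.3 and 15.8 CPM in wild type. Syce3 and Tex12 were below the limit. Syce3 had 22 and 34 reads in the knockout and 17 and 26 reads in wild type, and Tex12 had 10 and 5 reads in the knockout and 8 and 14 reads in wild type. Their ratios after scaling to depth were 1.20 (exact 95% interval 0.793 to 1.83) for Syce3 and 0.629 (0.303 to 1.27) for Tex12, so that no difference was detectable at this depth.

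Strand exchange genes gave 1 call among 5 tested, where 5.41% of all tested genes passed. Psmc3ip and Mnd1 encode the HOP2-MND1 pair that helps DMC1 to invade the homologue. Psmc3ip had 20.6 and 20.3 CPM in the knockout and 21.1 and 20.4 CPM in wild type (log2 difference -0.02, SE 0.085, limma adjusted p = 0.93). Mnd1 had 27.7 and 28.6 CPM in the knockout and 30.3 and 29.1 CPM in wild type, which do not overlap (adjusted p = 0.665). Dmc1 had 4.09 and 4.003 CPM in the knockout and 5.42 and 4.01 CPM in wild type; the spread between the wild-type libraries was wider than the difference of the means (adjusted p = 0.6). Spata22, whose product loads recombinases with MEIOB, had 1.55 and 0.732 CPM in the knockout and 1.47 and 1.16 CPM in wild type. Its RefSeq span overlaps that of Aspa by 317 bases, and Aspa averaged 3.39 CPM in the knockout and 6.40 CPM in wild type (adjusted p = 0.00437). Meiob had 11 and 11 reads in the knockout and 8 and 4 in wild type.

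Tex15, which is needed for recombination foci and for transposon silencing in male germ cells, was the member of this group that fell. It had 15.9 and 16.9 CPM in the knockout, against 21.1 and 21.7 CPM in wild type, without overlap and at 76.5% of wild type (log2 difference -0.37, SE 0.089, limma adjusted p = 0.0253). Its call ended without each of the 4 libraries in turn (adjusted p = 0.0515 to 0.1), with the direction kept. Tex15 lies on chromosome 8, where 52 of 681 tested genes, or 7.64%, were lower and the median was -0.06, and the part of this shift in the Tex15 and Syce2 values was not tested.

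Of 6 tested crossover genes, 1 fell and 0 rose, where 3.45% of all tested genes were lower and 1.95% higher. Tex11, an X-linked gene of the ZMM group that stabilises crossover intermediates, had 3.12 and 2.49 CPM in the knockout and 5.00 and 4.24 CPM in wild type, with no overlap (log2 difference -0.56, SE 0.15, limma adjusted p = 0.0436). Its call ended without wild-type replicate 1 (adjusted p = 0.203), knockout replicate 1 (0.052) or knockout replicate 2 (0.281). On the X chromosome 19 of 451 tested genes, or 4.21%, were lower. Msh5, a MutS homologue that clamps crossover intermediates, stood the other way at 1.83 and 1.92 CPM in the knockout and 0.892 and 1.09 CPM in wild type. The groups did not overlap, and the difference did not pass (log2 difference 0.53, SE 0.17, limma adjusted p = 0.0874). edgeR gave Msh5 an adjusted p of 0.105 with the usual filter on low counts and 0.0368 over all genes with a read. Msh4, the partner of MSH5, had 2.02 and 2.10 CPM in the knockout and 1.82 and 1.47 CPM in wild type (adjusted p = 0.53).

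The remaining crossover genes did not pass. Mlh3, which encodes a MutL homologue needed to resolve crossovers, had 75.0 and 71.6 CPM in the knockout and 68.8 and 72.5 CPM in wild type (log2 difference 0.05, SE 0.058, limma adjusted p = 0.68). Ccnb1ip1, which encodes the ubiquitin ligase HEI10, had 28.5 and 29.7 CPM in the knockout and 32.1 and 31.6 CPM in wild type, which do not overlap (adjusted p = 0.38). Hfm1, a helicase gene, had 1.97 and 1.72 CPM in the knockout and 1.91 and 1.88 CPM in wild type (adjusted p = 0.949).

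Stra8 encodes the retinoic acid-induced factor that switches on many meiotic genes at meiotic entry. It had 5.45 and 5.15 CPM in the knockout, against 8.16 and 6.96 CPM in wild type, with both knockout libraries lower. The log2 difference of -0.44 (SE 0.13) did not pass (limma, adjusted p = 0.0636). Nor did Stra8 pass in edgeR with the usual filter on low counts (adjusted p = 0.066) or in limma with no filter on low values (0.2). It passed in a limma fit that blocked on replicate number (adjusted p = 0.0206). With 1 library left out, its log2 difference ran from -0.34 without wild-type replicate 1 to -0.54 without wild-type replicate 2. In the authors' deposited table, an edgeR test over 24421 genes with 3.8% called, 10 of the 31 genes had a false discovery rate under 0.05. edgeR on the recovered reads over all genes with a read, where 6% passed and 3.68% were lower, called the same 10. They were the 7 genes called here and Stra8, all higher in wild type, and Sycp2 and Msh5, both higher in the knockout. Both tests rest on the same 4 libraries.

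**Figure D4:**
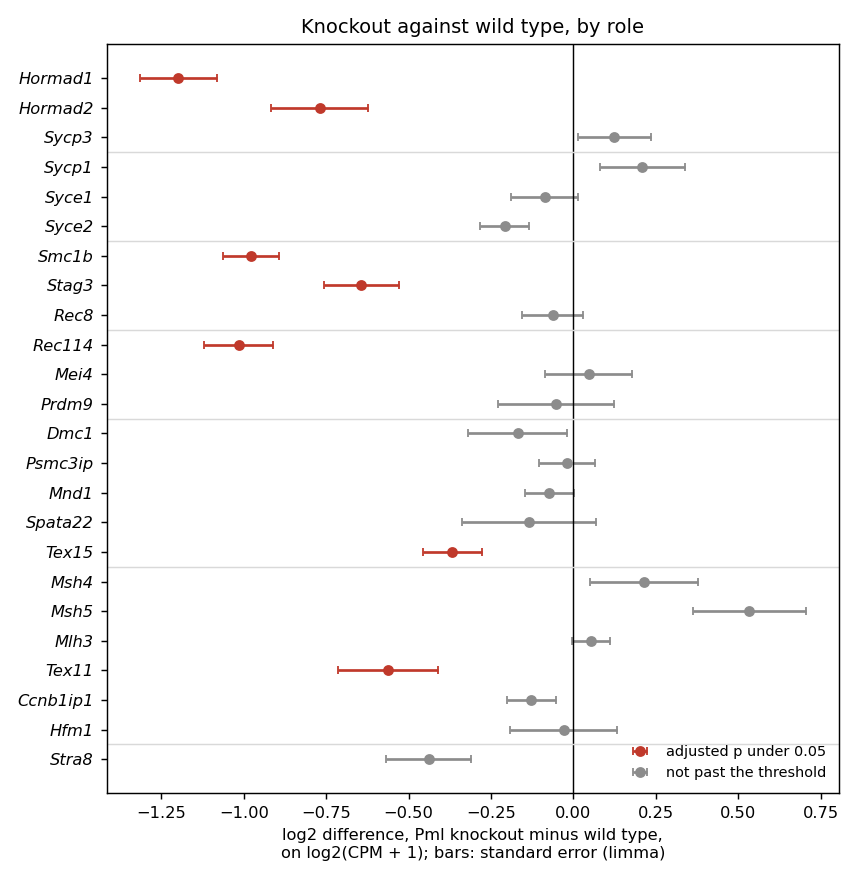
Log2 difference (knockout minus wild type, on log2(CPM + 1)) of the 24 tested genes with the limma standard error, ordered by role with grey lines between roles; red marks an adjusted p under 0.05. The 7 red points run from -1.20 for Hormad1 to -0.37 for Tex15, and the highest point is Msh5 at 0.53.

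Promoter sequences are shown for genes that fell and for 2 that did not pass, to set their motifs side by side. RefSeq windows of GRCm38.p6, from 250 bases before to 50 after an annotated start, were found for 27 of the 31 genes, with the first listed window used where there were several; for Rec114, Stag3 and Rec8 that start lies inside the gene's span. Germline genes bound by PRC1.6 are known to carry an E-box, CACGTG, for its MGA and MAX subunits and an E2F site for its E2F6 subunit, here searched as GCGGGA, on both strands. The 4 genes with the smallest adjusted p and a window are printed first, and Sycp3 and Rec8, which did not pass, after them. Capitals mark CACGTG and GCGGGA or its reverse complement TCCCGC, which appear in each window at one site or more.
Smc1b, chr15:85131908-85132207, minus strand: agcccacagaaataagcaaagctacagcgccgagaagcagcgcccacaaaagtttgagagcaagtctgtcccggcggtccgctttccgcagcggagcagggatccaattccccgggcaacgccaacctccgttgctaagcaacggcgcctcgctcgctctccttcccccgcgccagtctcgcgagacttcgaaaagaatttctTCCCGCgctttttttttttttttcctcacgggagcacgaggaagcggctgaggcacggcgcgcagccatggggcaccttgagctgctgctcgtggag
Hormad1, chr3:95559427-95559726, plus strand: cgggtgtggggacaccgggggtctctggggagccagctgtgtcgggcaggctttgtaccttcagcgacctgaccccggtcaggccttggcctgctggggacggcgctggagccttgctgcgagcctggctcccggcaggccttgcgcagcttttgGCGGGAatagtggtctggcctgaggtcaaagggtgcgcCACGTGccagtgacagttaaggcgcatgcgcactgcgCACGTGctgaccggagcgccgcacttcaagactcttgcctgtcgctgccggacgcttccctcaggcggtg
Rec114, chr9:58741510-58741809, minus strand: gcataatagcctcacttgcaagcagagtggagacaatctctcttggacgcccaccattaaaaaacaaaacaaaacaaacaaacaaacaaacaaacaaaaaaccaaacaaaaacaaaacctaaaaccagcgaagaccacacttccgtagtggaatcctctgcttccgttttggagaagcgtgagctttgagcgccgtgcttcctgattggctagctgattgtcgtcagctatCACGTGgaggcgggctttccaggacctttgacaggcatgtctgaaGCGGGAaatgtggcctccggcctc
Stag3, chr5:138280259-138280558, plus strand: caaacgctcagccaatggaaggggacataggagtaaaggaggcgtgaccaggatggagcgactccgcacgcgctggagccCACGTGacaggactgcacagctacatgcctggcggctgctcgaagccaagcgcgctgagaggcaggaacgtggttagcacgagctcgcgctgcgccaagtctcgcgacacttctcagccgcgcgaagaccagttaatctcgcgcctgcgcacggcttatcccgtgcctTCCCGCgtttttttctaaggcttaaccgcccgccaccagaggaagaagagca
Sycp3, chr10:88459337-88459636, plus strand: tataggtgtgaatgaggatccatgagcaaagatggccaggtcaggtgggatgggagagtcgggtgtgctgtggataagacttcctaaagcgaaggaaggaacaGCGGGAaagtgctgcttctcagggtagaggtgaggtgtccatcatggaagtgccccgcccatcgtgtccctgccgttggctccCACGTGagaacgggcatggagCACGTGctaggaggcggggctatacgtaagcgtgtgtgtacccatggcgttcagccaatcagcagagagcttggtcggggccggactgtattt
Rec8, chr14:55617916-55618215, plus strand: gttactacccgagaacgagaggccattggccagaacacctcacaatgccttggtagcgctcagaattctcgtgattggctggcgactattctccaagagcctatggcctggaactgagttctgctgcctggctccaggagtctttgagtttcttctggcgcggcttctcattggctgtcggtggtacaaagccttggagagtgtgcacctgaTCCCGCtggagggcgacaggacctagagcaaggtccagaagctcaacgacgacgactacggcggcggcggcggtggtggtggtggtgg

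In the Hormad1 window the E-box occurs 57 and 20 bases before the start and GCGGGA 95 bases before it. Rec114 has an E-box 19 bases before the start and GCGGGA 26 bases after it, and Stag3 has an E-box 170 bases and TCCCGC 2 bases before it. The Smc1b window holds TCCCGC alone. Sycp3, whose level did not pass, holds 2 E-boxes at 64 and 43 bases before the start and GCGGGA, so that the motifs stand in windows of genes that fell and of genes that did not pass. Over the 27 windows CACGTG was found in 6, or 22.2%, against 7.24% of 27025 RefSeq windows and 10.6% of the 10102 windows of tested genes. GCGGGA was found in 17, or 63.0%, against 20.0% and 37.3%. All 6 windows with the E-box also held GCGGGA, a combination found in 2.05% of all windows and 4.11% of those of tested genes. Of the 5 windows of genes that fell, 3 held both motifs, and of the 17 windows of tested genes that did not pass, 2 did. Tex15 and Tex11, which also fell, had no window and are in neither count. The longer forms TCACGTGA and TTCCCGCC, which contain the shorter ones, were found in 0 and 4 of the 27. TCACGTGA, searched as the E-box bound by MGA and MAX, was in 1.01% of all windows and 2.00% of those of tested genes. TTCCCGCC was in 2.24% of all windows and 4.42% of those of tested genes. These counts describe letters in a window of fixed size and not bound sites.

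CpG content also varied among the windows. The ratio of observed to expected CpG had a median of 0.67 over the 27 windows, 0.39 over all RefSeq windows and 0.77 over those of tested genes. The 5 windows of genes that fell ran from 0.53 for Hormad2 to 1.08 for Smc1b, with a median of 0.71. The 17 of tested genes that did not pass ran from 0.35 for Prdm9 to 1.14 for Mlh3, with a median of 0.67. The 5 of genes below 1 CPM had a median of 0.36.

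Regulators of these genes were read from the same test. The list of 35 tested genes held meiotic regulators, PRC1.6 subunits, the DNA methylation machinery and histone modifiers such as Setdb1, Ehmt2 and Kdm5c. Of the 35, 8 fell and 0 rose, with a median of -0.04. Over all tested genes 3.45% were lower and 1.95% higher. Cbx3, a heterochromatin protein that is part of PRC1.6, had 71.0 and 64.3 CPM in the knockout and 81.9 and 87.1 CPM in wild type (log2 difference -0.32, SE 0.062, limma adjusted p = 0.00709), a call that ended in 1 of the 4 leave-outs (adjusted p = 0.0606). Dazl, an RNA-binding licensing factor of germ cells, had 16.3 and 18.2 CPM in the knockout and 23.3 and 22.4 CPM in wild type (log2 difference -0.39, adjusted p = 0.0206; highest without 1 library 0.107). The DNA methylation genes Dnmt3l, Uhrf1 and Dnmt3a also fell (log2 differences -0.38, -0.19 and -0.22; adjusted p = 0.00859, 0.0143 and 0.0212), each of whose calls ended in 2 of the leave-outs. The last 3 of the 8, named after their values were seen, were Dnmt1, the germ cell regulator Zglp1 and the RNA helicase gene Ythdc2, at log2 differences of -0.16, -0.73 and -0.27; their calls ended in 3, 3 and 4 of the leave-outs. Zglp1 reached the limit of 1 CPM through the wild-type libraries, at 2.33 and 1.77 CPM, with 0.839 and 0.824 CPM in the knockout. None of the PRC1.6 subunit genes Mga, L3mbtl2, E2f6 and Pcgf6 was called (adjusted p = 0.305 to 0.988).

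A wider list of meiosis genes outside the 32 gave 5 lower and 1 higher of 27 tested, with a median of -0.18. The shares over all tested genes were 3.45% lower and 1.95% higher, here and for the repair genes below. Hsf2bp, whose product binds BRCA2 in meiotic repair, had 76.2 and 83.3 CPM in the knockout and 110.0 and 109 CPM in wild type (log2 difference -0.45, SE 0.056, limma adjusted p = 0.000186). Fkbp6, a chaperone gene needed for synapsis and piRNA production in males, had 22.1 and 24.04 CPM in the knockout and 37.8 and 33.1 CPM in wild type (log2 difference -0.60, SE 0.085, limma adjusted p = 0.00069). Zcwpw1, which encodes a reader of the histone marks that PRDM9 writes, averaged 16.1 ± 0.52 CPM in the knockout and 22.3 ± 0.75 CPM in wild type (adjusted p = 0.00793; highest without 1 library 0.0584). Majin, listed as 1700123I01Rik, which tethers meiotic telomeres to the nuclear envelope, averaged 1.37 ± 0.29 CPM in the knockout and 3.45 ± 0.94 CPM in wild type (adjusted p = 0.00828; highest without 1 library 0.0879). Cpeb1, a translational regulator of oocytes, was the one that rose, to 5.23 ± 0.54 CPM in the knockout, against 3.15 ± 0.0033 CPM in wild type (adjusted p = 0.0252; highest without 1 library 0.153). Ythdc2, already given, stands on both lists and is the remaining one that fell. Of 47 tested genes of somatic homologous recombination and mismatch repair, 1 fell and 0 rose, with a median of 0.02. It was Rad50, of the MRN break-sensing complex, at 79.2 ± 2.86 CPM in the knockout and 97.9 ± 1.94 CPM in wild type (log2 difference -0.30, adjusted p = 0.00389).

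The calls of Hormad1, Hormad2, Smc1b, Stag3 and Rec114 held without each library in turn. Without wild-type replicate 2, 7 genes were called, with Stra8 in and Tex15 out. Some spans overlap other genes, and whether counting used strand is unknown here. The span of Smc1b overlaps that of Fam118a by 52892 bases, and Fam118a averaged 38.4 CPM in the knockout and 37.3 CPM in wild type (adjusted p = 0.83). That of Stag3 overlaps Gpc2 by 6370 bases, and Gpc2 averaged 11.7 CPM in the knockout and 13.5 CPM in wild type (adjusted p = 0.404).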

How the data were processed

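Polyadenylated RNA was sequenced from 4 libraries. Per the submitters' processing notes, the tools were cutadapt, TopHat and edgeR, and the build mm10. Versions, annotation, read counting and strand: not given in the sources used here. Columns of the deposited table hold CPM per library (reads per 1000000), by the authors, with the authors' log2 fold change (wild type over knockout), log2 mean CPM, p-value and false discovery rate. All deposited CPM values were whole multiples of the value of 1 read within 0.001 reads (100%), so that 1 CPM is 31.4 to 44.1 reads. The other 2 samples, PML-labelled chromatin, were not analysed here.

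limma-trend (limma 3.58.1, R 4.3.3) was fitted on log2(CPM + 1) on 12710 genes whose mean reached 1 CPM. The design held genotype alone, knockout minus wild type, with Benjamini-Hochberg adjustment at 0.05. This scale understates the change of low genes. Recovered reads were tested with edgeR 4.0.16 (quasi-likelihood, TMM), which called 620 of 14782 genes with filterByExpr and 1125 of 18761 genes with at least 1 read. Intervals are exact binomial (Clopper-Pearson) on pooled reads and cover counting error only. Positions came from a RefSeq table of GRCm38.p6, where 23204 symbols matched directly, a further 1096 through older symbols, and 121 had none. The rule for naming genes took all 32 members, Pml, up to 5 called genes of each further list by smallest adjusted p, and direct counterparts, some of which are not reported here; others are said to be named after their values were seen. The members and lists were chosen with earlier results of these data known, so no list was tested as a set. Of the further lists, 3 meiotic regulators, 6 other meiosis genes and 1 repair gene had no row.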

Additional observations from a re-analysis of the deposited data

How the results depend on the processing

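Of 12710 genes, 687 passed; the count was 298 with no filter on low values, 1125 with edgeR on all genes with a read, and 367 to 869 when 1 library was left out, the lowest without knockout replicate 2 and 439 without wild-type replicate 1. Of the 24 tested meiotic genes, 7 passed, 6 with edgeR, 10 of 31 with edgeR on all genes with a read, 4 with no filter and 5 to 7 without 1 library; Tex15, Tex11 and Hormad2 were the calls lost with no filter. Of 122 tested genes of the further lists 16 passed, 6 with no filter and 7 to 16 without 1 library (7 without knockout replicate 2, 8 without wild-type replicate 1). The sets tested differ between these settings. With no filter 18761 genes were tested, 31 of them meiotic and 133 of the further lists. edgeR with its usual filter tested 14782 genes, 29 of them meiotic. The replicate numbers are not said in the labels to mark a shared culture, and same-numbered deviations correlated at 0.12. With the replicate number as a block 1198 genes passed, 9 of the meiotic genes (Stra8 and Msh5 added) and 23 of the further lists. Over the 24 meiotic genes and all alternatives, 272 differences kept their side of the threshold, 11 lost it, 5 gained it and 0 changed sign as a called value; the cause was not tested. Genes below 1 CPM rest on few reads.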
